A study of Homo sapiens with 9 samples.

Results

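The 51 genes described here encode the enzymes that activate, oxidise and synthesise fatty acids. They were taken as a list of gene symbols covering acyl-CoA activation, mitochondrial oxidation, peroxisomal oxidation, mitochondrial synthesis and cytosolic synthesis with malonyl-CoA turnover. The list was chosen with earlier results of these data known. Of the 51 genes, 47 were tested among 13118 genes. The symbols of 3 genes (ACSL3, SCP2 and MCAT) were carried by no probe in the annotation used. The single probe of CROT, peroxisomal carnitine octanoyltransferase, was too dim to pass the signal filter. In all, 72 of the 48803 probes on the array carried the symbol of one of these genes, and 65 of them passed the filter.

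Cytoplasmic RNA of HCT116 cells, an established human colorectal carcinoma line, was profiled 72 h after transfection with GANP siRNA, NXF1 siRNA or control siRNA. Each group had 3 Illumina HumanWG-6 v3 arrays, 1 from each of 3 independent depletion experiments. NXF1 is the general mRNA export receptor, and GANP (gene symbol MCM3AP) is the scaffold of the TREX-2 complex, which brings mRNA bound to NXF1 to the nuclear pore. The study asked which mRNAs need each factor to reach the cytoplasm. Each factor was depleted with 1 siRNA sequence, and the control siRNA was a variant of the GANP siRNA changed at a few bases. The same 3 control siRNA arrays served both depletions, so their comparisons with control are not independent of each other.

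Long-chain fatty acids are joined to coenzyme A by acyl-CoA synthetases and carried into mitochondria by the carnitine shuttle. There they are shortened by repeated rounds of dehydrogenation, hydration, dehydrogenation and thiolysis, and the electrons pass through electron transfer flavoprotein to the respiratory chain. Peroxisomes shorten very long and branched chains by a parallel set of enzymes. Synthesis runs in the cytosol on the single multifunctional enzyme FASN, and in mitochondria on separate enzymes that build the octanoyl precursor of lipoate. Many carcinoma cells make much of their fatty acid themselves.

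Values are log2 signals after background correction and quantile normalization, and a difference of 1 log2 unit is a doubling of signal. Signals depend on the probe as well as on the mRNA, so levels were compared between arrays and not between genes. The arrays received equal amounts of labelled RNA and were quantile normalized, so every difference is relative to the other cytoplasmic RNAs of the same sample. A lower cytoplasmic signal cannot be told apart from less mRNA in the whole cell, and in bulk samples fewer cells of a kind cannot be told apart from less RNA per cell. A gene was called when the adjusted p of limma, a linear model with a spread shared across genes, was under 0.05 and the log2 difference was over 0.25 or under -0.25. Arrays are given in the order of experiments 1, 2 and 3, errors on differences are standard errors (SE) of the fit, and n = 3 arrays per group throughout.

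The targeted gene MCM3AP had signals of 8.59, 8.80 and 8.76 on the GANP siRNA arrays, 9.65, 9.70 and 9.82 on the NXF1 siRNA arrays and 9.59, 9.80 and 9.88 on the control siRNA arrays. Its difference from control was -1.04 (SE 0.10, limma adjusted p = 7.0e-05) with GANP siRNA. No probe in the annotation carried the symbol NXF1, so that depletion could not be checked on the arrays. Of the markers of colon epithelium 8 of 12 passed the signal filter, against 2 of 8 for fibroblasts. Of the 8 blood cell markers 7 had a probe and 3 passed. Among all 18665 genes with a probe 13118 passed, so the share of the colon epithelium markers was near that of all genes. KRT20 and CLDN4, with control siRNA means of 6.43 and 6.66, were close to the filter at 6.35. The summed signals of the colon epithelium markers were 64180 to 68540 with GANP siRNA, 78160 to 78610 with NXF1 siRNA and 63020 to 66540 with control siRNA. Of 5 RNAs that normally stay in the nucleus 3 had a probe, and 2, RN7SK and MEG3, passed the filter. The summed signals of the 3 were 1674 to 2234 with GANP siRNA, 4046 to 5098 with NXF1 siRNA and 775.2 to 1123 with control siRNA. Most of this was RN7SK, which differed from control by 1.12 log2 units with GANP siRNA and by 2.51 with NXF1 siRNA. MEG3 differed by 0.15 and -0.04 and was not called. The part of either shift in the results that follow was not tested.

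After NXF1 siRNA, 25 of the 47 genes (53.2%) were called lower in the cytoplasm than with control siRNA and 0 were called higher, nor was any higher at an unadjusted limma p under 0.05. Among all 13118 genes, 14.0% were called lower and 11.6% higher. From these same arrays the paper listed fatty acid metabolism among the functions enriched in transcripts lower after NXF1 depletion only. The counts given here are therefore not independent of that result. The median difference of the 47 genes was -0.29, against 0.00 for all genes tested. After GANP siRNA, 5 of the 47 genes were called lower, where 5.90% of all genes were, and 1 was called higher, where 6.28% of all genes were. The median of the 47 genes was 0.04, against 0.00 for all genes. Set directly against each other, the depletions left 24 of the 47 genes called higher with GANP siRNA than with NXF1 siRNA, against 11.3% of all genes, and 2 were called lower, against 8.29%. The genes called lower after both depletions were CBR4, HSD17B8, ACADSB and SCD. ACSL5 was called lower after GANP siRNA only, 20 genes after NXF1 siRNA only, and CPT1C was called in opposite directions. Genes called lower after both depletions made up 8.511% of the 47 genes and 3.796% of all genes. Those called lower after GANP siRNA only made up 2.128% and 2.096%, and those after NXF1 siRNA only 42.55% and 9.887%.

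**Figure D1:**
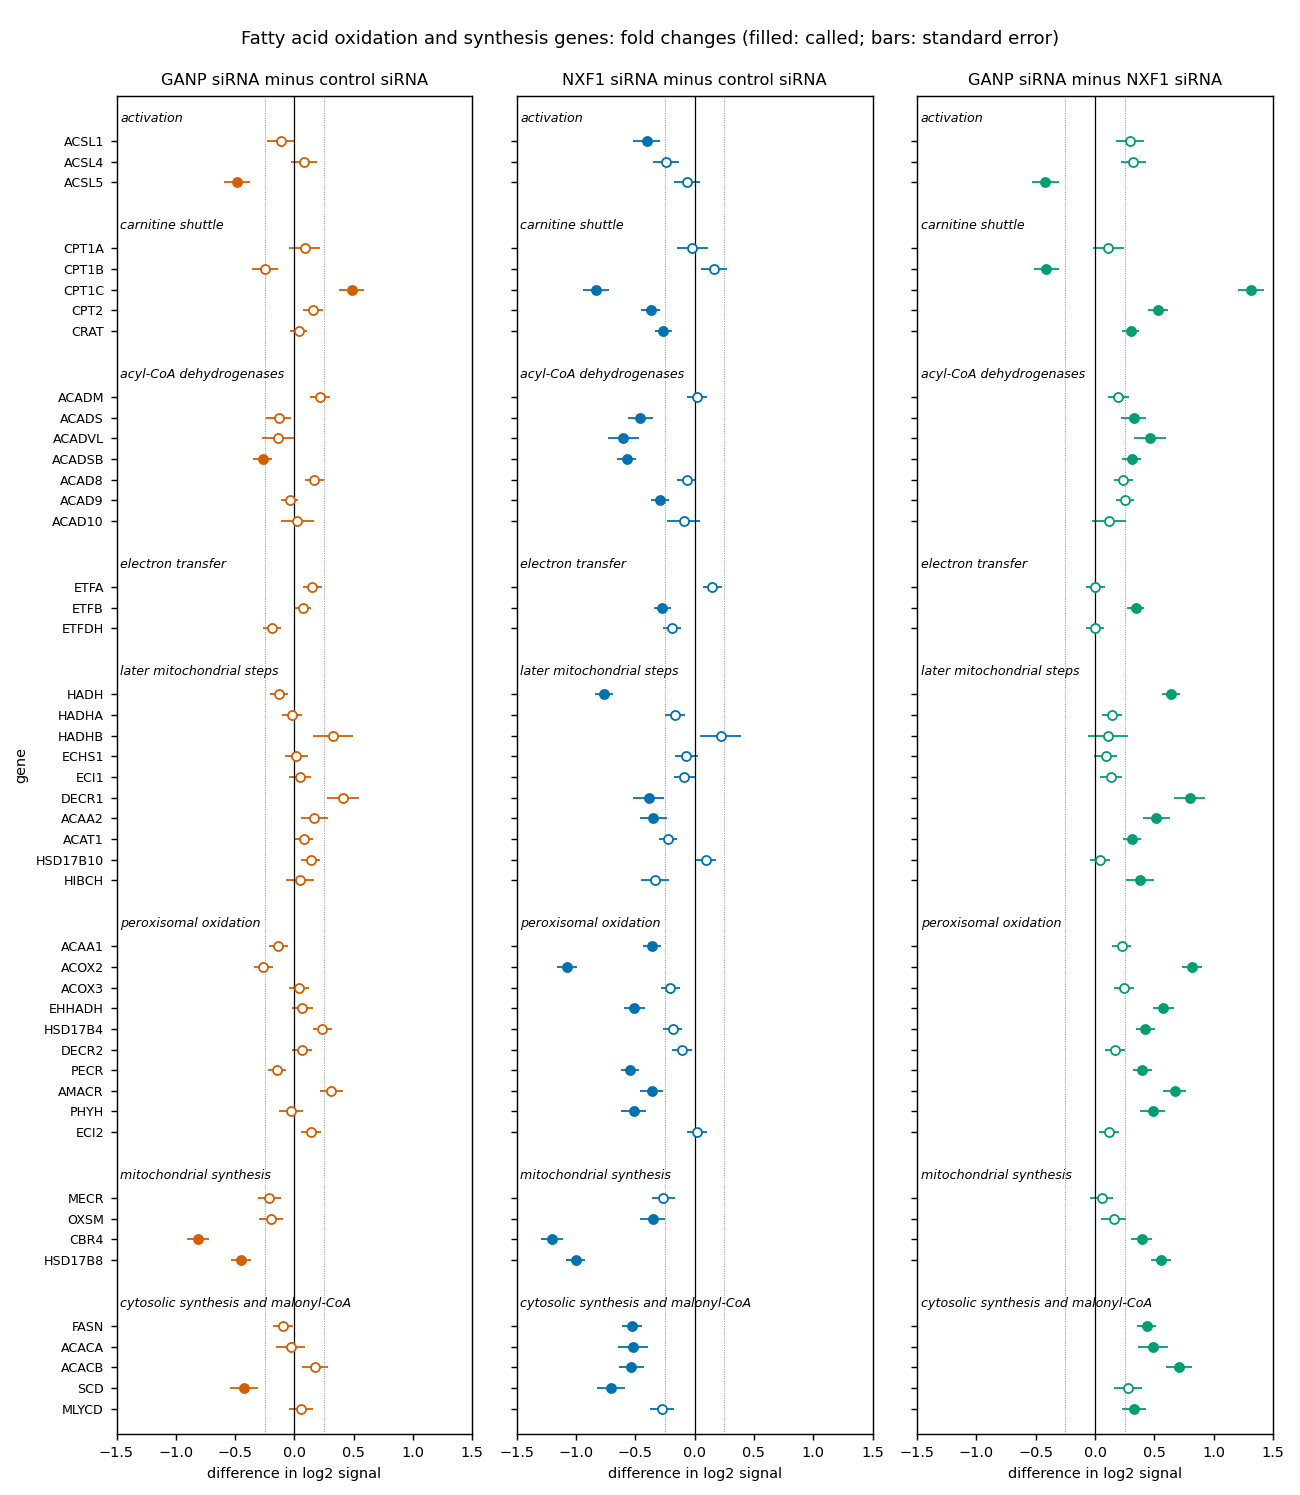
Differences in log2 signal for the 47 genes tested, grouped by role, with GANP siRNA minus control siRNA on the left, NXF1 siRNA minus control siRNA in the middle and GANP siRNA minus NXF1 siRNA on the right. Filled circles are called genes, bars are SE, and dotted lines mark differences of 0.25 and -0.25. In the middle panel 41 of the 47 points lie left of 0, and 45 of the 47 points of the right panel lie right of 0.

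The same picture held within each experiment. With NXF1 siRNA, 38, 42 and 39 of the 47 genes had a lower signal than the control siRNA array of experiments 1, 2 and 3, and the median differences were -0.26, -0.32 and -0.31. In all 3 experiments 35 of the 47 genes were lower, against 30.4% of all genes. With GANP siRNA, 24, 24 and 22 genes were lower, and the medians were 0.00, -0.05 and 0.01. In all 3 experiments 19 of the 47 genes were lower with GANP siRNA and 16 higher, against 26.3% and 27.0% of all genes. The 3 NXF1 siRNA arrays lay below all 3 control siRNA arrays for 29 of the 47 genes, where 21.0% of all genes did. The 3 GANP siRNA arrays lay below the controls for 11 genes, where 15.5% of all genes did, and above them for 8, where 15.8% did. The probes of these genes were bright, with a median signal of 9.78 against 8.31 for all genes tested, and bright genes were called somewhat more often. Among the 3956 genes at or above that median signal, 16.5% were called lower after NXF1 siRNA, and among the 24 of them that belong to the 47 genes, 13 were.

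**Figure D2:**
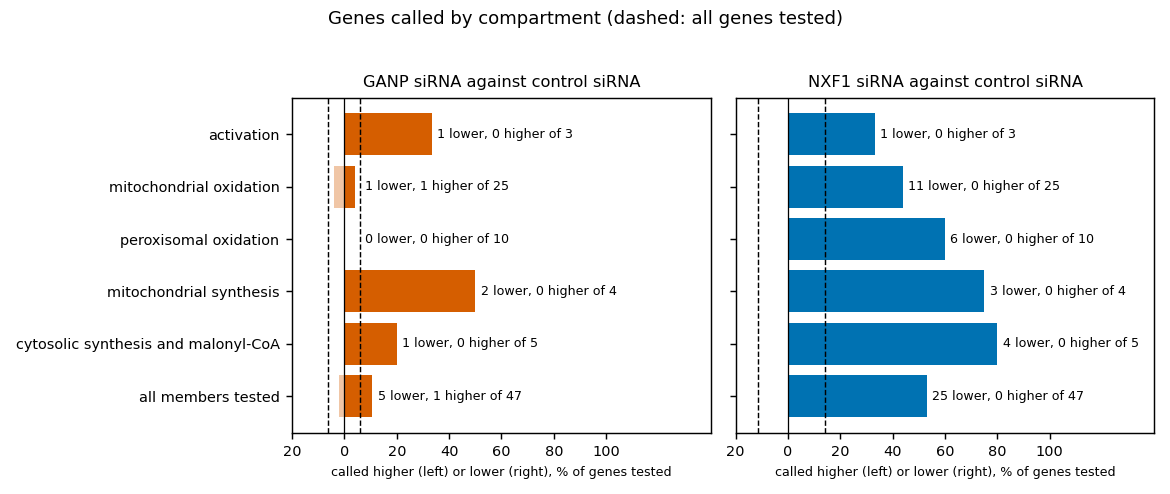
Share of the genes tested in each compartment that were called lower (right of 0) or higher (left of 0, pale) after GANP siRNA on the left and NXF1 siRNA on the right, in percent. Dashed lines mark the shares over all genes tested. After NXF1 siRNA the share called lower ran from 1 of 3 in activation to 4 of 5 in cytosolic synthesis and malonyl-CoA. No compartment held a gene called higher after NXF1 siRNA, and after GANP siRNA only mitochondrial oxidation did, with 1 of 25.

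Mitochondrial fatty acid synthesis held CBR4, the gene with the largest fall after either depletion among the 47. Of its 4 tested genes, 2 were called lower after GANP siRNA and 3 after NXF1 siRNA, against 5.90% and 14.0% of all genes. The median differences of the 4 genes were -0.33 and -0.68. CBR4 and HSD17B8 encode the subunits of one enzyme, mitochondrial 3-ketoacyl-ACP reductase, which reduces the growing chain on the acyl carrier protein. CBR4 had signals of 9.43, 9.51 and 9.32 on the GANP siRNA arrays, 9.16, 9.0 and 8.92 on the NXF1 siRNA arrays and 10.12, 10.28 and 10.31 on the control siRNA arrays. The 3 groups did not overlap. CBR4 fell by 43.1% with GANP siRNA (log2 difference -0.81, SE 0.09, limma adjusted p = 2.2e-04) and fell by 56.6% with NXF1 siRNA (-1.20, SE 0.09, limma adjusted p = 4.2e-06). Between the depleted groups it was higher with GANP siRNA by 0.39 (SE 0.09, limma adjusted p = 0.0097).

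HSD17B8 followed the same order. Its signals were 9.24, 9.33 and 9.31 with GANP siRNA, 8.86, 8.64 and 8.72 with NXF1 siRNA and 9.65, 9.77 and 9.80 with control siRNA, again with no overlap of the groups. The difference from control was -0.45 (SE 0.08, limma adjusted p = 0.0042) after GANP siRNA and -1.0 (SE 0.08, limma adjusted p = 7.1e-06) after NXF1 siRNA, and GANP siRNA exceeded NXF1 siRNA by 0.56 (SE 0.08, limma adjusted p = 6.3e-04). None of the calls of CBR4 and HSD17B8 against control was lost when any 1 array was left out.

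The other enzymes of the pathway moved less. OXSM, the condensing 3-ketoacyl-ACP synthase, had 7.88, 8.08 and 8.09 with GANP siRNA, 7.69, 7.89 and 7.99 with NXF1 siRNA and 8.10, 8.16 and 8.38 with control siRNA. It was called lower after NXF1 siRNA (-0.36, SE 0.10, limma adjusted p = 0.023) but not after GANP siRNA (-0.20, SE 0.10, limma adjusted p = 0.26). Without NXF1 siRNA array 1 or 2 or control siRNA array 3 the call of OXSM after NXF1 siRNA was lost (limma adjusted p = 0.051 to 0.10). MECR, the enoyl reductase that completes each round, differed from control by -0.21 with GANP siRNA and -0.27 with NXF1 siRNA (SE 0.10 each, limma adjusted p = 0.20 and 0.063). Its second probe gave -0.21 and -0.23. On all 4 genes the GANP siRNA arrays lay below the control siRNA arrays, as they did for 15.5% of all genes. The highest GANP siRNA array and the lowest control siRNA array were 8.09 and 8.10 for OXSM, and 8.31 and 8.35 for MECR.

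The proximal promoters of the reductase pair are shown because these genes fell together. Each covers 250 bases before and 50 after the transcription start, 5′ to 3′ on the strand of the gene, from RefSeq on GRCh38.p14. CBR4 lies on the minus strand at chr4:169010206-169010505 and HSD17B8 on the plus strand at chr6:33204405-33204704. Capitals mark matches, on either strand, to the GC box GGGCGG bound by Sp1 or to CCAAT.
CBR4: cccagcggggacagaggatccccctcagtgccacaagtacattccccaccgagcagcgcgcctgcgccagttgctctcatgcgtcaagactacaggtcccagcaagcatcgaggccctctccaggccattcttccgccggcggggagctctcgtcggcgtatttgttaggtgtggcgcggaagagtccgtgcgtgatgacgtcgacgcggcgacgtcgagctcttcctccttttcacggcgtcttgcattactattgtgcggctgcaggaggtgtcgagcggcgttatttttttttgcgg
HSD17B8: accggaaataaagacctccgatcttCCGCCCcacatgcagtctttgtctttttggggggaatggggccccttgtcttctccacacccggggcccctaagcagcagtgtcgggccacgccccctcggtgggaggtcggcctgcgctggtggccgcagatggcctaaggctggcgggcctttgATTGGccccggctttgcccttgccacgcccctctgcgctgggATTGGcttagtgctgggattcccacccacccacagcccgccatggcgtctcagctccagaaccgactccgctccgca
HSD17B8 held 1 GC box and 2 CCAAT boxes, and CBR4 held 0 of either in this window. Promoters of this kind were at hand for 41 of the 51 genes. The GC box occurred in 33 of the 41, against 44.5% of 27305 promoters of the same length, and in 12 of the 18 with a gene called lower after NXF1 siRNA and 17 of the 19 with another tested gene. CCAAT occurred in 13 of the 41, against 35.7% of all promoters. The estrogen-related receptor motif AAGGTCA occurred in 0 of 41 (4.0% of all), the NRF1 motif GCATGCGC in 1 (3.29% of all) and the E-box CACGTG in 2 (7.41% of all). None of these motifs contains another, and a match is a description of the sequence only.

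**Figure D3:**
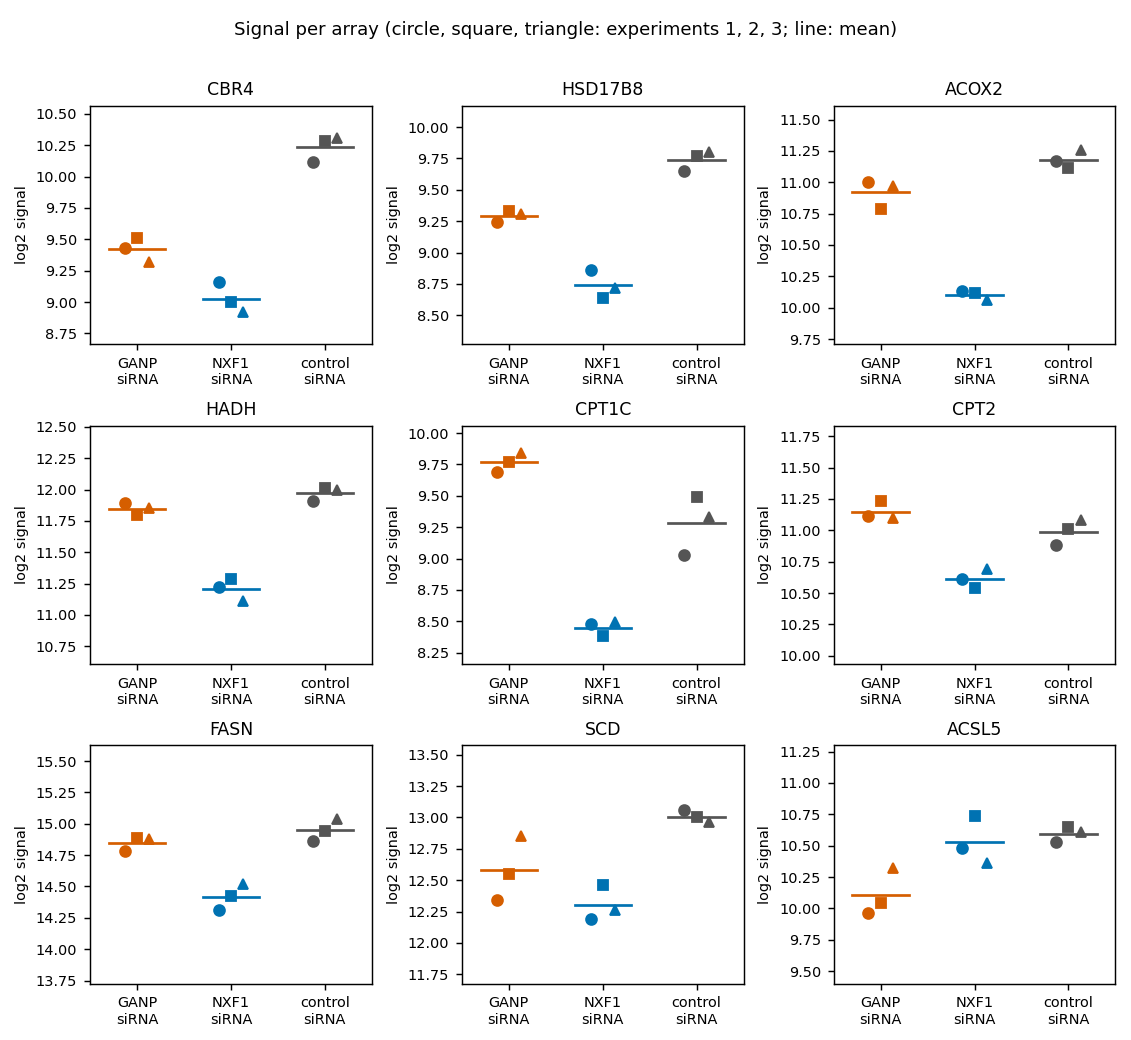
Log2 signal on each array for 9 genes with GANP siRNA, NXF1 siRNA and control siRNA. Circles, squares and triangles are experiments 1, 2 and 3, lines are group means, and each panel has its own vertical range. CBR4 and HSD17B8 step down in 3 separate levels, ACOX2, HADH and FASN are lowest on the NXF1 siRNA arrays, CPT1C is highest with GANP siRNA, and ACSL5 is lowest with GANP siRNA.

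Cytosolic synthesis with malonyl-CoA turnover, a group that also holds the desaturase SCD, fell after NXF1 siRNA. Of its 5 genes 4 were called lower, against 14.0% of all genes, with a median difference of -0.53. After GANP siRNA only SCD, 1 of 5, was called lower, against 5.90% of all genes. FASN, the multifunctional fatty acid synthase, had signals of 14.78, 14.89 and 14.88 with GANP siRNA, 14.31, 14.42 and 14.52 with NXF1 siRNA and 14.86, 14.94 and 15.04 with control siRNA. The NXF1 siRNA arrays lay below both other groups, which overlapped each other. FASN differed from control by -0.53 after NXF1 siRNA (SE 0.08, limma adjusted p = 5.5e-04) and by -0.09 after GANP siRNA (SE 0.08, limma adjusted p = 0.54), and the depleted groups differed by 0.43 (limma adjusted p = 0.0031).

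The acetyl-CoA carboxylases make malonyl-CoA, which in the cytosol feeds FASN (ACACA) and at the mitochondrial surface inhibits the carnitine shuttle (ACACB). ACACA had 10.86, 11.10 and 11.22 with GANP siRNA, 10.39, 10.53 and 10.80 with NXF1 siRNA and 10.91, 11.15 and 11.22 with control siRNA. ACACB had 8.36, 8.55 and 8.33 with GANP siRNA, 7.88, 7.63 and 7.60 with NXF1 siRNA and 8.07, 8.39 and 8.26 with control siRNA. Both carboxylases were lowest on the NXF1 siRNA arrays in every experiment, and differed from control by -0.52 for ACACA (SE 0.12, limma adjusted p = 0.0077) and -0.53 for ACACB (SE 0.11, limma adjusted p = 0.0027). With GANP siRNA they differed from control by -0.03 and 0.17, and neither was called. Malonyl-CoA decarboxylase (MLYCD), which removes malonyl-CoA, had 8.27, 8.13 and 8.21 with GANP siRNA, 8.03, 7.75 and 7.84 with NXF1 siRNA and 8.34, 8.03 and 8.09 with control siRNA. Its NXF1 siRNA arrays lay below the GANP siRNA arrays and overlapped the control arrays. MLYCD was higher with GANP siRNA than with NXF1 siRNA by 0.33 (SE 0.10, limma adjusted p = 0.037), a call lost without any 1 of the GANP siRNA arrays or of NXF1 siRNA arrays 2 and 3 (limma adjusted p = 0.062 to 0.14). Against control it differed by -0.28 after NXF1 siRNA (SE 0.10, limma adjusted p = 0.060), which was called with the experiment as a block (limma adjusted p = 0.0074).

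SCD, the desaturase that makes monounsaturated fatty acids, had 12.34, 12.55 and 12.85 with GANP siRNA, 12.19, 12.46 and 12.26 with NXF1 siRNA and 13.06, 13.00 and 12.96 with control siRNA. Both depleted groups lay below the control arrays and overlapped each other. SCD fell by 0.43 with GANP siRNA (SE 0.12, limma adjusted p = 0.033) and by 0.71 with NXF1 siRNA (SE 0.12, limma adjusted p = 8.3e-04) on the log2 scale, and the depleted groups differed by 0.28 (SE 0.12, limma adjusted p = 0.12). The call after GANP siRNA was lost without any 1 of the control siRNA arrays or of GANP siRNA arrays 1 and 2 (limma adjusted p = 0.066 to 0.11).

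Activation and the carnitine shuttle did not move as one. Among the acyl-CoA synthetases, ACSL5, an isoform of the intestinal epithelium, had 9.96, 10.04 and 10.32 with GANP siRNA, 10.48, 10.74 and 10.36 with NXF1 siRNA and 10.53, 10.65 and 10.61 with control siRNA. Its GANP siRNA arrays lay below both other groups. ACSL5 was called lower after GANP siRNA (-0.48, SE 0.11, limma adjusted p = 0.015) and not after NXF1 siRNA (-0.06, SE 0.11, limma adjusted p = 0.74), and the depleted groups differed by -0.42 (SE 0.11, limma adjusted p = 0.020). Its 4 probes did not move alike after GANP siRNA. The other 3 differed from control by -0.44, -0.25 and -0.02, and with the mean of the probes the log2 difference was -0.30 and the call was lost. It was also lost without GANP siRNA array 1 or 2 or control siRNA array 2 (limma adjusted p = 0.054 to 0.064).

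ACSL1, which channels long chains in liver and heart, had 7.20, 7.29 and 7.38 with GANP siRNA, 6.81, 7.28 and 6.91 with NXF1 siRNA and 7.27, 7.49 and 7.45 with control siRNA. It was called lower after NXF1 siRNA (-0.41, SE 0.12, limma adjusted p = 0.021) although array 2 of that group lay above the lowest control array. Without NXF1 siRNA array 1 or 3 or control siRNA array 2 or 3 this call was lost (limma adjusted p = 0.066 to 0.082). ACSL4, which prefers arachidonate, was not called against control (0.08 with GANP siRNA and -0.24 with NXF1 siRNA), and its other 2 probes gave 0.15 and -0.04 after NXF1 siRNA. With the experiment as a block the depleted groups differed in ACSL1 (0.29, limma adjusted p = 0.030) and ACSL4 (0.32, limma adjusted p = 0.0043).

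In the carnitine shuttle 3 of 5 genes were called lower after NXF1 siRNA, against 14.0% of all genes. After GANP siRNA 1 of 5 was called higher, against 6.28%. CPT1C, an isoform found mainly in brain that lies in the endoplasmic reticulum and has little acyltransferase activity, had signals of 9.69, 9.77 and 9.84 with GANP siRNA, 8.48, 8.38 and 8.49 with NXF1 siRNA and 9.03, 9.49 and 9.33 with control siRNA. The GANP siRNA arrays lay above the control arrays and the NXF1 siRNA arrays below them. It rose with GANP siRNA (0.48, SE 0.11, limma adjusted p = 0.011) and fell with NXF1 siRNA (-0.83, SE 0.11, limma adjusted p = 1.3e-04). The depleted groups differed by 1.32 (SE 0.11, limma adjusted p = 1.4e-05), the widest gap among the 47 genes. Of all 13118 genes, 47 were called higher after GANP siRNA and lower after NXF1 siRNA. The promoter window of CPT1C, on the plus strand at chr19:49690598-49690897, held none of the motifs named above and is shown for its opposite changes. Unlike the windows of CBR4 and HSD17B8, it was not placed on the outermost start of its gene. The annotated gene begins at 49690662, so most of the window lies inside it and little sequence before that start was searched.
CPT1C: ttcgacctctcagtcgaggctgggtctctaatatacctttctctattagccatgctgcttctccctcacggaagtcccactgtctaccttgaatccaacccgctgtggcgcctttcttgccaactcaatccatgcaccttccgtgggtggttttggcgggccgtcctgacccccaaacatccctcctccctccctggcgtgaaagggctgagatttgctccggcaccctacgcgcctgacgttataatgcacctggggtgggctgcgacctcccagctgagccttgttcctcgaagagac

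CPT1A, the rate-limiting carnitine palmitoyltransferase of most tissues, differed from control by 0.09 with GANP siRNA and -0.02 with NXF1 siRNA (SE 0.13 each), and neither was called. CPT2, which reforms acyl-CoA on the inner membrane, had 11.11, 11.23 and 11.10 with GANP siRNA, 10.61, 10.54 and 10.69 with NXF1 siRNA and 10.88, 11.01 and 11.08 with control siRNA. All GANP siRNA arrays lay above and all NXF1 siRNA arrays below the control arrays, but only the fall was called (-0.37, SE 0.08, limma adjusted p = 0.0050, against 0.16, limma adjusted p = 0.25, with GANP siRNA). Carnitine acetyltransferase (CRAT) had 7.40, 7.48 and 7.47 with GANP siRNA, 7.16, 7.22 and 7.08 with NXF1 siRNA and 7.40, 7.47 and 7.38 with control siRNA. Its fall of 0.26 on the log2 scale after NXF1 siRNA (SE 0.07, limma adjusted p = 0.018) stood just past the threshold, was 0.24 below control with the authors' values and was not called without NXF1 siRNA array 3 or control siRNA array 2 (limma adjusted p = 0.073 to 0.077). CPT1B, the muscle isoform, was called in the direct comparison, where it was lower with GANP siRNA (-0.41, SE 0.11, limma adjusted p = 0.019). It had 6.92, 7.06 and 7.30 with GANP siRNA, 7.55, 7.44 and 7.53 with NXF1 siRNA and 7.15, 7.44 and 7.44 with control siRNA, and this call was lost without GANP siRNA array 1 or 2 or NXF1 siRNA array 3 (limma adjusted p = 0.054 to 0.071).

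The acyl-CoA dehydrogenases catalyse the opening step of each mitochondrial round. Of the 7 tested, 4 were called lower after NXF1 siRNA, against 14.0% of all genes. ACADVL, for very long chains, had 11.53, 11.71 and 11.93 with GANP siRNA, 11.04, 11.29 and 11.46 with NXF1 siRNA and 11.65, 11.93 and 12.01 with control siRNA. It fell by 34.2% after NXF1 siRNA (-0.60, SE 0.13, limma adjusted p = 0.0048), and its other 2 probes fell by 0.65 and 0.74 on the log2 scale. After GANP siRNA the 3 probes differed from control by -0.14, -0.08 and -0.14, and none was called. ACADS, for short chains, had 7.95, 8.10 and 8.31 with GANP siRNA, 7.80, 7.86 and 7.72 with NXF1 siRNA and 8.08, 8.33 and 8.34 with control siRNA, and fell after NXF1 siRNA (-0.46, SE 0.10, limma adjusted p = 0.0056). ACAD9, which also assembles respiratory complex I, had 10.73, 10.68 and 10.69 with GANP siRNA, 10.56, 10.39 and 10.40 with NXF1 siRNA and 10.77, 10.74 and 10.71 with control siRNA, a fall of 0.29 on the log2 scale after NXF1 siRNA (SE 0.07, limma adjusted p = 0.012). The NXF1 siRNA arrays of all 3 genes lay below the control arrays, and the GANP siRNA arrays overlapped them.

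ACADSB, for short branched chains from isoleucine, had 7.37, 7.55 and 7.43 with GANP siRNA, 7.20, 7.19 and 7.04 with NXF1 siRNA and 7.68, 7.75 and 7.72 with control siRNA. Both depleted groups lay below control and apart from each other. The fall after NXF1 siRNA was -0.57 (SE 0.08, limma adjusted p = 2.4e-04). The smaller difference after GANP siRNA was barely past the threshold (-0.26, SE 0.08, limma adjusted p = 0.049) and was not called with the authors' values, without background correction, with an intensity trend, in a separate fit of each pair of groups, without the signal filter, at an adjusted p under 0.01, or without NXF1 siRNA array 2 or any 1 of the GANP siRNA and control siRNA arrays (limma adjusted p = 0.052 to 0.15 over the arrays left out). ACADM, for medium chains, had 11.88, 12.12 and 12.04 with GANP siRNA, 11.81, 11.77 and 11.86 with NXF1 siRNA and 11.70, 11.77 and 11.91 with control siRNA. Its brightest probe was not called in any comparison, at 0.22 with GANP siRNA and 0.02 with NXF1 siRNA against control. Its second probe was called higher with GANP siRNA, both against control (0.30, limma adjusted p = 0.031) and against NXF1 siRNA (0.26, limma adjusted p = 0.039), when every probe above the filter was tested. ACAD8, which acts on a valine product, and ACAD10 were not called either, with differences of 0.17 and 0.03 after GANP siRNA and -0.07 and -0.09 after NXF1 siRNA.

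Electron transfer flavoprotein takes the electrons of these dehydrogenases, and its parts did not change together after NXF1 siRNA. The beta subunit ETFB had 12.81, 12.82 and 12.81 with GANP siRNA, 12.41, 12.50 and 12.51 with NXF1 siRNA and 12.81, 12.70 and 12.72 with control siRNA, a fall of 0.27 on the log2 scale after NXF1 siRNA (SE 0.07, limma adjusted p = 0.013). Its second probe fell by 0.32. The call of ETFB was lost without NXF1 siRNA array 1 or control siRNA array 1, where the log2 difference was -0.24. The alpha subunit ETFA had 13.22, 13.10 and 13.22 with GANP siRNA, 13.29, 13.08 and 13.17 with NXF1 siRNA and 13.06, 13.00 and 13.03 with control siRNA. Both depleted groups of ETFA lay above the control arrays by 0.15, and neither difference was called. ETFDH, which passes the electrons on to ubiquinone, was 0.19 below control in both depleted groups (SE 0.08 each), and neither difference was called.

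Later mitochondrial steps split after NXF1 siRNA, where 3 of 10 genes were called lower, against 14.0% of all genes. HADH, the short-chain 3-hydroxyacyl-CoA dehydrogenase, had 11.89, 11.80 and 11.85 with GANP siRNA, 11.22, 11.29 and 11.11 with NXF1 siRNA and 11.91, 12.01 and 12.0 with control siRNA. It fell by 41.2% after NXF1 siRNA (-0.77, SE 0.08, limma adjusted p = 2.7e-05), and with GANP siRNA it was 0.13 below control, which was not called although all 3 arrays lay below (limma adjusted p = 0.33). The depleted groups differed by 0.64 (SE 0.08, limma adjusted p = 1.7e-04). The trifunctional protein, which carries out the step of HADH as well as hydration and thiolysis on long chains, was not called in either subunit. HADHA differed from control by -0.02 with GANP siRNA and -0.17 with NXF1 siRNA (SE 0.08 each). HADHB had 8.66, 9.21 and 9.11 with GANP siRNA, 8.51, 9.07 and 9.07 with NXF1 siRNA and 8.5, 8.63 and 8.86 with control siRNA, and its arrays of experiment 1 were lowest in each group. HADHB was 0.33 above control with GANP siRNA and was called only with the experiment as a block (limma adjusted p = 0.024, against 0.25 without it).

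ECHS1, the short-chain hydratase, ECI1, the isomerase for unsaturated chains, and HSD17B10, a dehydrogenase of branched chains that is also part of mitochondrial RNase P, were not called in any comparison. Their differences from control lay between 0.02 and 0.14 with GANP siRNA and between -0.09 and 0.09 with NXF1 siRNA. DECR1, the mitochondrial 2,4-dienoyl-CoA reductase for polyunsaturated chains, had 11.65, 12.06 and 11.99 with GANP siRNA, 10.89, 11.30 and 11.12 with NXF1 siRNA and 11.30, 11.56 and 11.61 with control siRNA. Its 3 groups did not overlap, although array 2 with NXF1 siRNA came within rounding of the lowest control array. DECR1 fell after NXF1 siRNA (-0.39, SE 0.13, limma adjusted p = 0.044), and after GANP siRNA it was 0.41 above control (SE 0.13, limma adjusted p = 0.061), which was called with the experiment as a block (limma adjusted p = 0.0025). The depleted groups differed by 0.80 (SE 0.13, limma adjusted p = 0.0012). Without NXF1 siRNA array 1 or 3 or control siRNA array 2 or 3 the fall was not called (limma adjusted p = 0.088 to 0.15).

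Of the mitochondrial thiolases, ACAA2 had 8.44, 8.77 and 8.60 with GANP siRNA, 7.95, 8.13 and 8.18 with NXF1 siRNA and 8.31, 8.66 and 8.34 with control siRNA. It was called lower after NXF1 siRNA (-0.35, SE 0.11, limma adjusted p = 0.039), and the call was lost without NXF1 siRNA array 1 or 2 or control siRNA array 2 (limma adjusted p = 0.072 to 0.18). ACAT1, which splits acetoacetyl-CoA, had 12.71, 12.68 and 12.76 with GANP siRNA, 12.37, 12.32 and 12.51 with NXF1 siRNA and 12.66, 12.62 and 12.62 with control siRNA, with no overlap of the 3 groups. It was 0.23 below control after NXF1 siRNA (SE 0.08, limma adjusted p = 0.040), inside the fold threshold, and was higher with GANP siRNA than with NXF1 siRNA by 0.31 (limma adjusted p = 0.012). HIBCH, a hydrolase of valine breakdown, had 11.64, 11.45 and 11.18 with GANP siRNA, 11.23, 11.02 and 10.88 with NXF1 siRNA and 11.42, 11.34 and 11.36 with control siRNA. It was higher with GANP siRNA than with NXF1 siRNA by 0.38 (SE 0.12, limma adjusted p = 0.037) although these groups overlapped. That call was lost in a separate fit of each pair and without GANP siRNA array 1 or 2, NXF1 siRNA array 2 or 3 or control siRNA array 2 (limma adjusted p = 0.055 to 0.13 over the arrays left out). Against control HIBCH was 0.33 lower after NXF1 siRNA (SE 0.12, limma adjusted p = 0.054), which was called with the experiment as a block (limma adjusted p = 0.0084).

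Peroxisomal oxidation had 6 of 10 genes called lower after NXF1 siRNA, against 14.0% of all genes, with a median difference of -0.36. After GANP siRNA 0 of 10 were called, with a median difference of 0.05. An unadjusted limma p under 0.05 past the fold threshold gave 1 higher and 1 lower. Of all genes, 5.90% were called lower and 6.28% higher after GANP siRNA, so 0 of 10 was not far from those shares. ACOX2, the branched-chain acyl-CoA oxidase that also shortens bile acid side chains, had 11.00, 10.79 and 10.97 with GANP siRNA, 10.13, 10.12 and 10.06 with NXF1 siRNA and 11.17, 11.11 and 11.26 with control siRNA. It fell by 52.6% after NXF1 siRNA (-1.08, SE 0.08, limma adjusted p = 4.3e-06). With GANP siRNA it was 0.26 below control (SE 0.08), with no overlap of the arrays, which missed the threshold without a block (limma adjusted p = 0.057) and passed it with one (limma adjusted p = 0.026). The depleted groups differed by 0.82 (SE 0.08, limma adjusted p = 4.5e-05). ACOX3, the second branched-chain oxidase, was not called against control, at 0.04 with GANP siRNA and -0.21 with NXF1 siRNA.

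The 2 peroxisomal bifunctional enzymes differed. EHHADH, for straight chains, had 9.20, 9.0 and 9.01 with GANP siRNA, 8.57, 8.38 and 8.53 with NXF1 siRNA and 8.90, 9.08 and 9.02 with control siRNA, a fall of 0.51 on the log2 scale after NXF1 siRNA (SE 0.09, limma adjusted p = 0.0011). HSD17B4, for branched chains, had 11.76, 11.77 and 11.78 with GANP siRNA, 11.24, 11.32 and 11.48 with NXF1 siRNA and 11.46, 11.59 and 11.55 with control siRNA. Its GANP siRNA arrays all lay above the control arrays (0.24, SE 0.08, limma adjusted p = 0.077), and only the gap between the depleted groups was called (0.42, limma adjusted p = 0.0032). The peroxisomal thiolase ACAA1 had 10.29, 10.17 and 10.12 with GANP siRNA, 10.01, 9.92 and 9.96 with NXF1 siRNA and 10.42, 10.29 and 10.27 with control siRNA, and fell after NXF1 siRNA (-0.36, SE 0.08, limma adjusted p = 0.0048).

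PECR, the peroxisomal trans-2-enoyl-CoA reductase, had 9.96, 9.97 and 9.95 with GANP siRNA, 9.69, 9.50 and 9.50 with NXF1 siRNA and 10.15, 10.13 and 10.05 with control siRNA. It fell after NXF1 siRNA (-0.55, SE 0.08, limma adjusted p = 2.8e-04), and its GANP siRNA arrays lay between the other groups without being called (-0.15, limma adjusted p = 0.26). PHYH, which starts the alpha-oxidation of phytanic acid, had 9.86, 10.11 and 10.03 with GANP siRNA, 9.45, 9.52 and 9.56 with NXF1 siRNA and 9.82, 10.05 and 10.21 with control siRNA. It fell after NXF1 siRNA (-0.51, SE 0.10, limma adjusted p = 0.0028), where its other 2 probes gave -0.42 and -0.20. After GANP siRNA the 3 probes gave -0.03, 0.13 and 0.25.

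AMACR, the racemase that prepares branched chains for oxidation, had 8.36, 8.25 and 8.10 with GANP siRNA, 7.75, 7.43 and 7.51 with NXF1 siRNA and 7.91, 7.96 and 7.90 with control siRNA. The 3 groups did not overlap. It fell after NXF1 siRNA (-0.36, SE 0.10, limma adjusted p = 0.015), a call lost without NXF1 siRNA array 2 or 3 or control siRNA array 2 (limma adjusted p = 0.054 to 0.069). After GANP siRNA it was 0.31 above control (SE 0.10, limma adjusted p = 0.057) and was called with the experiment as a block (limma adjusted p = 0.021), but its other 2 probes gave -0.08 and 0.08. DECR2, the peroxisomal dienoyl-CoA reductase, and ECI2, the peroxisomal and mitochondrial isomerase, were not called in any comparison. They differed from control by 0.06 and 0.14 with GANP siRNA and by -0.11 and 0.02 with NXF1 siRNA.

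**Figure D4:**
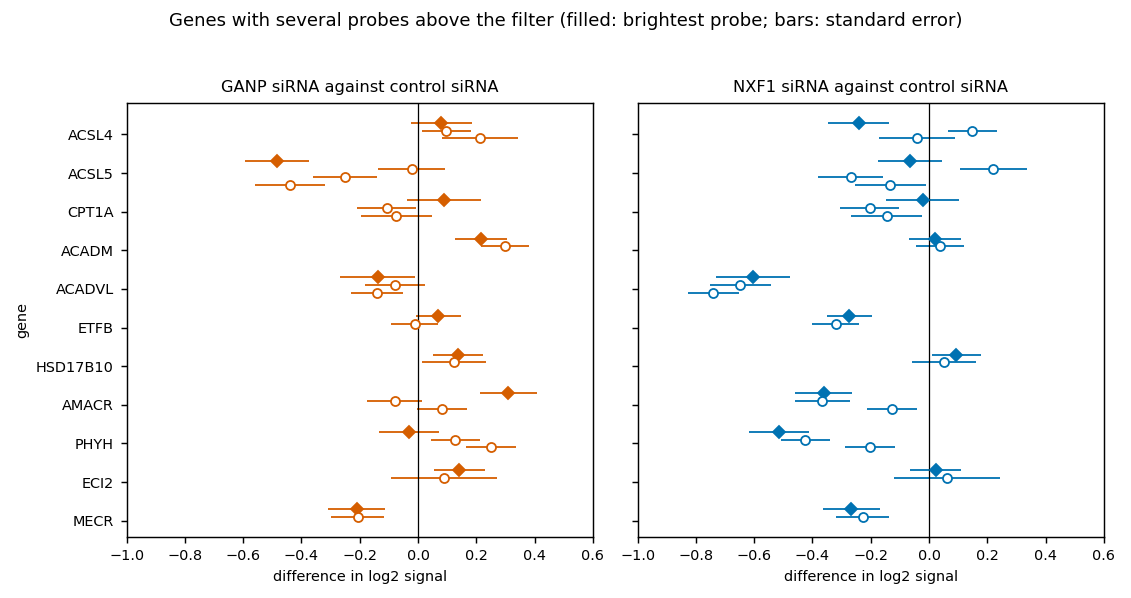
Differences in log2 signal for each probe of the 11 genes with several probes above the signal filter, with GANP siRNA against control siRNA on the left and NXF1 siRNA against control siRNA on the right. Filled diamonds are the brightest probe, used for the gene, open circles are its other probes, and bars are SE. All probes of ACADVL and ETFB lie left of 0 after NXF1 siRNA, whereas the probes of ACSL5 spread from -0.48 to -0.02 after GANP siRNA.

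With the experiment as a block the counts of called genes were 4 higher and 6 lower after GANP siRNA, 0 higher and 27 lower after NXF1 siRNA, and 26 higher and 2 lower in the direct comparison. The genes added after GANP siRNA were DECR1, HADHB and AMACR, which were higher, and ACOX2, which was lower. Over all 13118 genes the block raised the calls after GANP siRNA to 1194 higher and 1114 lower, against 824 and 774 without it. After NXF1 siRNA they rose to 1791 higher and 2072 lower, against 1521 and 1842. In the direct comparison they rose to 1758 higher and 1404 lower, against 1483 and 1088.

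Genes of neighbouring pathways, of which 56 were tested, moved less uniformly. They comprise other acyl-CoA synthetases, thioesterases, further oxidation enzymes, acyl carrier and lipoate genes, genes of acetyl-CoA and NADPH supply, lipid-binding proteins, lipases and regulators. After NXF1 siRNA 18 were called lower and 7 higher, with a median of -0.05, where 14.0% of all genes were called lower and 11.6% higher. After GANP siRNA 2 (3.57%) were called lower and 5 (8.93%) higher, with a median of 0.05, near the 5.90% and 6.28% of all genes, and with the experiment as a block these counts were 6 and 6. The largest changes after GANP siRNA were those of ECHDC2 (0.71, SE 0.09, limma adjusted p = 3.6e-04), LIAS (-0.53, SE 0.08, limma adjusted p = 9.2e-04), MLXIPL (0.40, SE 0.12, limma adjusted p = 0.046) and ECHDC1 (-0.37, SE 0.11, limma adjusted p = 0.048). LIAS makes lipoate from the product of mitochondrial synthesis, and MLXIPL is the carbohydrate response factor ChREBP. After NXF1 siRNA they were those of the acyl-CoA synthetase ACSM3 (-1.04), the monoacylglycerol lipase MGLL (0.71), the acyl-CoA dehydrogenase ACAD11 (-0.67) and the lipase cofactor ABHD5 (0.63), each with an SE of 0.08 to 0.13. In the direct comparison ACSM3 (1.21), ACAD11 (0.85), MLXIPL (0.83) and PCCA (0.59), a subunit of propionyl-CoA carboxylase, were highest with GANP siRNA relative to NXF1 siRNA. The share called lower after NXF1 siRNA was 32.1% of these 56 genes and 53.2% of the 47 genes, and the difference between the lists was not tested.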

How the data were processed

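Cytoplasmic fractions were obtained by digitonin permeabilization, and amplified, biotinylated RNA was hybridised to the arrays. Per the methods, the authors imported scans into BeadStudio, applied quantile normalization and worked with lumi (version not given in the sources used here) and limma. The deposited values are quantile normalized intensities on the linear scale, with array medians of 95.2 to 95.3. A second table without normalization has 18 value columns named by slide position, which no label pairs with a sample, and was not used. Its detection p-values therefore could not serve as a filter.

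With limma 3.58.1 (R 4.3.3), the intensities were background corrected by normexp at an offset of 50, put through quantile normalization again and taken to log2. Groups and experiment numbers were taken from the sample titles. The annotation gave 27578 of 48803 probes a single gene symbol, 13 more than 1 and 21212 no symbol. The signal filter kept probes whose mean log2 signal exceeded 6.35, the median over the whole array, and the brightest probe left stood for its gene. The 3 groups were fitted together by lmFit and eBayes, with 6 residual degrees of freedom and a prior of 6.43, and p-values took a Benjamini-Hochberg adjustment over 13118 genes within each comparison. With 3 arrays per group, the number of arrays sets the precision. The fit was tested on simulated data.

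The experiment numbers pair the arrays, since the labels give each depletion experiment its number. Deviations from the group means correlated at 0.11 to 0.46 in the 9 pairs of arrays with the same number and at -0.40 to 0.12 in the 18 other pairs between groups, across genes, which are not independent replicates. The study's methods name no block, so the experiment was added as a block in an alternative.

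The 51 genes, the neighbouring genes and the markers were chosen with earlier results of these data known. Every one of the 51 genes could be named, those called with the signal of every array, and of the neighbouring genes the 4 called with the largest change in each comparison. Other alternatives were the authors' values, leaving out the background correction, median scaling, a filter at percentile 75 or none, averaging the probes of a gene, a separate fit of each pair, an intensity trend, no fold threshold, an adjusted p under 0.01 and leaving out each array. Promoter windows were read from a RefSeq table (GRCh38.p14) and matched by symbol. Comparisons of lists were described by counts and medians and not tested.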

Additional observations from a re-analysis of the deposited data

How the results depend on the processing

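None of the 57 calls changed direction under 11 other settings or with any of the 9 arrays left out, and 35 were kept under all of them. Settings that changed only the block, the fit, the filter or the thresholds left the log2 differences as they were. Those settings could therefore not reverse a call, only end it. With the filter at percentile 75, 53 of the 57 calls could be examined. Called higher after GANP siRNA were 4 genes with the replicate block, 3 with the filter at percentile 75, 2 with the mean of probes, 2 with a separate fit of each pair, 2 with an intensity trend, 0 at an adjusted p under 0.01 and 1 to 3 without 1 array, with 2 when GANP siRNA array 1 or 3 and 3 when NXF1 siRNA array 1 was left out. Called lower after GANP siRNA were 2 at an adjusted p under 0.01 and 2 to 5 without 1 array, with 2 when GANP siRNA array 1 or 2 or control siRNA array 2 was left out and 3 when control siRNA array 1 or 3 was. The median after GANP siRNA was -0.02 to 0.05 without 1 array, and it was below 0 without GANP siRNA array 2. The median after NXF1 siRNA was -0.33 with the filter at percentile 75. Called lower in the direct comparison were 1 with that filter, 1 with the mean of probes, 0 at an adjusted p under 0.01 and 0 to 2 without 1 array, with 0 when GANP siRNA array 1 or 2 and 1 when NXF1 siRNA array 2 or 3 was left out. The genes called lower after NXF1 siRNA numbered 20 to 26 without 1 array and 17 at an adjusted p under 0.01, and those called higher in the direct comparison 18 to 24 and 16. The replicate block ended none of the calls and added those named in the report. Of the calls, 20 were lost without at least 1 array, 10 of them in the direct comparison (ACACA, ACADS, ACADSB, ACADVL, ACAT1, ACSL5, CPT1B, CRAT, HIBCH and MLYCD). The causes were not tested. Dim genes are measured least well, and the dimmest of the 47, ACAD10, had a mean signal of 6.77 against a filter at 6.35.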
